A study of Mus musculus with 12 samples.

Results

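Cybb, Cyba, Ncf1, Ncf4 and Rac2 encode 5 subunits of the phagocyte NADPH oxidase, and their transcripts were followed in the hyperplastic mammary gland of MIC mice of 3 genotypes. They were taken by gene name from a deposited table of 54532 genes, and each name was found once. The series title concerns the cytokine CHI3L1, neutrophil extracellular traps and the exclusion of T cells in breast cancer, and the question here was how the oxidase subunits stood in glands lacking Stat3 or Chi3l1. MIC mice are known as a model in which doxycycline switches on, in mammary epithelial cells, the middle T antigen of polyoma virus and the recombinase Cre. All 12 libraries were from female FVB/N mice that received doxycycline at 2 mg/ml in the drinking water, and the titles name a time of 2 wk. There were 4 libraries of MIC WT, 4 of MIC Stat3 ko and 4 of MIC Chi3l1 ko, so the transgenes and the treatment were shared by the WT glands. The knockout alleles, the cells in which they were removed and the age of the mice were not given in the sources used here. Nothing in the labels says that the libraries were from separate animals, and p-values measure the spread between these libraries only.

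The oxidase makes superoxide by passing electrons from NADPH to oxygen across a membrane, and it is best known from neutrophils, monocytes and macrophages, where it serves the killing of microbes. Cybb encodes NOX2, the catalytic chain, and Cyba encodes p22phox, its membrane partner, which also pairs with other NOX proteins and is made in many cell types. Ncf1 (p47phox, the organizer) and Ncf4 (p40phox, which binds a phosphoinositide of the phagosome) wait in the cytosol and join the membrane chains on stimulation. Rac2 is a small GTPase of blood cells that switches the assembled complex on. It is also made in T and B cells, and B cells make the other subunits as well. Oxidase-derived superoxide is known as one trigger of neutrophil extracellular traps.

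Library totals ran from 16217143 to 22607123 counts, and the 5 genes took from 291 to 6036 counts in a library, so counting error was small beside the spread between libraries. Levels are in FPKM, fragments scaled by gene length and library total, which allows genes to be compared per length. Stat3 was at 48.0 ± 1.93 FPKM (SD, n = 4) in WT and 15.8 ± 3.04 in Stat3 ko libraries, and Chil1, the gene of CHI3L1, was listed at 0 to 0.032 FPKM in the Chi3l1 ko libraries against 107 to 212 in WT. Chil1 was also lower in every Stat3 ko library than in any WT library, at 4.92 to 17.6 FPKM. Summed epithelial markers (Krt8, Epcam and 5 others) lay between 1102 and 2805 FPKM, so the libraries held the labelled tissue. Stat3 ko libraries 2 and 3 stood apart by their B cell markers, at 632 and 265 summed FPKM against 8.77 to 54.5 in the other 10 libraries. Stat3 ko library 1 stood apart by its adipocyte markers, at 3863 FPKM against at most 529 elsewhere. Mitochondrial counts exceeded 2% in 3 libraries, with a highest share of 4.79%.

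On the GRCm38 build, Cybb lies at chrX:9435252-9487771 on the minus strand, Cyba at chr8:122424776-122432930 on the minus strand and Ncf1 at chr5:134220053-134229625 on the minus strand. Ncf4 at chr15:78244801-78262580 on the plus strand and Rac2 at chr15:78559167-78572783 on the minus strand are on the same chromosome. All 5 are protein-coding, and the deposited coordinates and lengths equal those of the exons in GENCODE vM21, from 1039 bases for Cyba to 5808 for Cybb. Cyba overlaps the plus-strand gene Gm20388 and Ncf1 overlaps the plus-strand gene Gtf2ird2. Whether counting used the strand is not given in the sources used here, so reads in those overlaps are uncertain.

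Promoter windows in RefSeq (GRCm38.p6) were found for 3 of the 5 genes, Cybb, Cyba and Ncf1, and are shown because Stat3 is one of the genes removed and STAT, interferon and PU.1 factors are known regulators of oxidase genes. Each holds 250 bases before and 50 after the annotated start, 5′ to 3′ on the gene's strand. Capitals mark the matches to the STAT palindrome TTCNNNGAA, the interferon response core GAAANNGAA, CCAAT and GAGGAA, a short PU.1 core, searched on both strands. The windows are chrX:9469275-9469574 for Cybb, chr8:122432891-122433190 for Cyba and chr5:134229576-134229875 for Ncf1, all on the minus strand. The Cybb start lies 18447 bases inside the GENCODE gene span, whose 5′ end is that of another transcript, and motif positions count from the RefSeq start.
Cybb: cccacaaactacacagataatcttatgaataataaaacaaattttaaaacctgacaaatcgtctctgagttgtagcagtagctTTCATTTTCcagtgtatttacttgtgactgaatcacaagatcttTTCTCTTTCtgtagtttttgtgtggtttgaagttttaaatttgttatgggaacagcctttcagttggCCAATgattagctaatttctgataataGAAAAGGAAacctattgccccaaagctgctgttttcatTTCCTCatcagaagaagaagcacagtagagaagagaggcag
Cyba: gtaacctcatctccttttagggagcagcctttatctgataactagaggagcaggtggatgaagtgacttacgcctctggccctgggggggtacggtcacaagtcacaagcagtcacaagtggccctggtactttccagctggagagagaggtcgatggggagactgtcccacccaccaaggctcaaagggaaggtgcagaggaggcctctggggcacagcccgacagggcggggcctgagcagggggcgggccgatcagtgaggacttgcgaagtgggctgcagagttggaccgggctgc
Ncf1: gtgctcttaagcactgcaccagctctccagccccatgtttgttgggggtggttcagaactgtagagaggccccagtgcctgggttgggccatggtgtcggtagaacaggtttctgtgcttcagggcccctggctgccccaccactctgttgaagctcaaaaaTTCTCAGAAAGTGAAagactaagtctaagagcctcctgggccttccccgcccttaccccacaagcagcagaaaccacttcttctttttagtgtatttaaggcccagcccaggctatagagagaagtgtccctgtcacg
Ncf1 held 1 STAT palindrome, TTCTCAGAA, starting 88 bases before the start, and it shared 3 bases with an interferon core, GAAAGTGAA, at 82 bases before. Cybb held 3 interferon cores, a CCAAT box 56 bases before the start and TTCCTC, the other strand of GAGGAA, 10 bases after it. The Cyba window held none of the motifs. Of all 32851 windows of this length, 8.3% held the STAT palindrome, 8.56% the interferon core, 37.4% CCAAT, 28.3% GAGGAA and 13.6% the longer PU.1 core GAGGAAG, which was in none of the 3 windows. GAGGAA was added after the windows had been seen. A match in the letters is a description and not a binding site.

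In the WT gland, Cyba was the most abundant subunit transcript per length, and its lowest library, at 58.0 FPKM, lay above the highest library of each other subunit. Cybb followed at 12.01 ± 2.24 FPKM (SD, n = 4), Rac2 at 10.6 ± 3.46, Ncf4 at 9.17 ± 1.78 and Ncf1 at 7.0 ± 1.55. Cybb, Rac2 and Ncf4 overlapped across WT libraries, and their order is not beyond the spread. Ncf1 was below Ncf4 in each of the 12 libraries, at 0.668 to 0.842 of its FPKM. In the Stat3 ko libraries Rac2 had the second highest mean, 50.4 FPKM behind 96.3 for Cyba, while Ncf4 at 18.3, Cybb at 17.9 and Ncf1 at 13.1 overlapped. That place rests on libraries 2 and 3, since Rac2 in libraries 1 and 4, at 16.5 and 18.9 FPKM, lay within the range of Cybb and of Ncf4, and Cybb was above Rac2 in library 4.

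**Figure D1:**
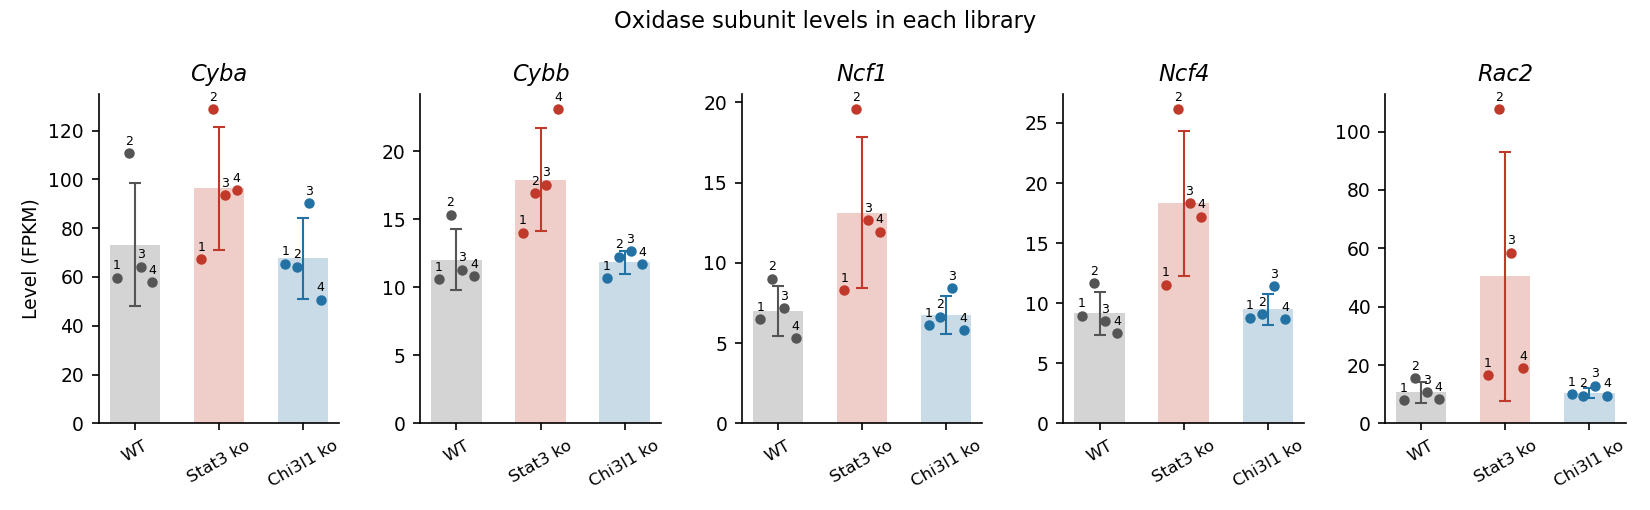
Level of each subunit in FPKM (y axis from 0) in the 12 libraries, with points numbered by library, bars for the group mean and whiskers for 1 SD (n = 4). Rac2 in Stat3 ko libraries 2 and 3 reached 108 and 58.5 FPKM, and the Chi3l1 ko libraries overlapped the WT libraries for every subunit.

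The membrane chains had the smallest differences of the 5 in the Stat3 ko glands, and Cybb alone of the pair passed the test. Cybb was at 10.6, 15.3, 11.3 and 10.8 FPKM in WT libraries 1 to 4, and at 14.0, 16.9, 17.5 and 23.1 FPKM in Stat3 ko libraries 1 to 4. Library 4 was the highest of the Stat3 ko group, and WT library 2 was above Stat3 ko library 1, so the groups overlapped by 1 pair. Cybb rose by 0.53 on the log2(FPKM + 1) scale (SE 0.15, 95% interval 0.21 to 0.86), with an adjusted p of 0.0379 in limma, and was higher in 15 of 16 pairs of libraries. Cyba was at 59.7, 111, 64.2 and 58.0 FPKM in WT and at 67.3, 129, 93.7 and 95.5 FPKM in Stat3 ko libraries. Here WT library 2 lay above 3 of the 4 Stat3 ko libraries. The difference of 0.41 (SE 0.25, interval -0.15 to 0.96) did not pass the test, with an adjusted p of 0.271, and the interval leaves room for a change as large as that of Ncf1.

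The cytosolic subunits Ncf1 and Ncf4 rose together. Ncf1 was at 6.51, 9.02, 7.16 and 5.31 FPKM in WT and at 8.30, 19.6, 12.7 and 11.9 FPKM in Stat3 ko libraries. Ncf4 was at 8.98, 11.7, 8.50 and 7.53 FPKM in WT and at 11.6, 26.1, 18.3 and 17.2 FPKM in Stat3 ko libraries. For both genes Stat3 ko library 2 was the highest, libraries 3 and 4 were close to each other, and library 1 fell just below WT library 2. Ncf1 rose by 0.78 (SE 0.22, interval 0.30 to 1.27, adjusted p = 0.0389, limma), a ratio of group means of 1.88. Ncf4 rose by 0.89 (SE 0.21, interval 0.43 to 1.34, adjusted p = 0.0206, limma), a ratio of 2.00.

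Rac2 had the largest difference of the 5 and the widest spread. It was at 7.99, 15.5, 10.6 and 8.27 FPKM in WT and at 16.5, 108, 58.5 and 18.9 FPKM in Stat3 ko libraries. All 4 Stat3 ko libraries were above all 4 WT libraries, but libraries 1 and 4 only just, while libraries 2 and 3 carried most of the group mean. Its coefficient of variation in Stat3 ko was 84.9%, against 21.2% for Cybb and 32.8% for Ncf4. Rac2 rose by 1.79 (SE 0.50, interval 0.70 to 2.88, adjusted p = 0.0373, limma), and 98.2% of the 13643 tested genes had a smaller or more negative difference.

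Thus 4 of the 5 subunits were called higher in Stat3 ko against WT at an adjusted p under 0.05, where 5.61% of all tested genes were called higher and 8.39% lower. All 5 had passed the filter on low values in every group. Of the 5, only Rac2 had groups that did not overlap, and 9.67% of tested genes lay wholly higher in the same way. The same 4 genes were called by edgeR (9.7% of tested genes higher) and by DESeq2 (15.3% higher) on the recovered counts. These calls were near the threshold. Without WT library 1, 3 or 4 no subunit was called, where 1.17%, 2.4% and 1.62% of tested genes were called higher. Without Stat3 ko library 2 or 3 (3.26% and 7.21% higher) or Chi3l1 ko library 1 or 4 (3.77% and 4.13%) only Ncf4 was. Without Chi3l1 ko library 3 (3.92%) Ncf1 and Ncf4 were. In the 12 fits that leave out 1 library each, the 4 differences stayed above 0 and at least 4 of the 5 subunits had an unadjusted p under 0.05. Such a p was found for 25.9% to 39.6% of all tested genes in these fits, and for 34.1% with every library in. When the fit held only the 2 groups compared, 0 subunits were called (1.08% of genes higher) and 4 had an unadjusted p under 0.05, as did 27.9% of all tested genes. With no filter on low values 1 subunit was called, Ncf4 (1.43% higher).

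**Figure D2:**
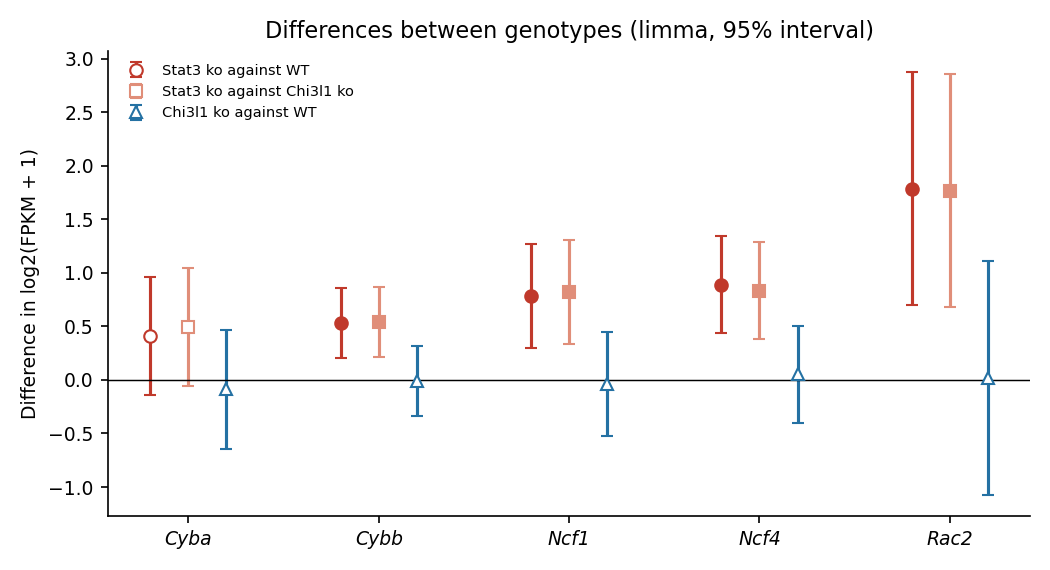
Difference in log2(FPKM + 1) between genotypes for each subunit, with 95% intervals from limma; filled symbols have an adjusted p under 0.05. Cybb, Ncf1, Ncf4 and Rac2 were above 0 in both comparisons of Stat3 ko libraries, and the 5 differences of Chi3l1 ko from WT ran from -0.09 to 0.05.

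In the Chi3l1 ko glands no subunit was called against WT. Cybb was at 10.7, 12.3, 12.6 and 11.7 FPKM, and Rac2 at 10.01, 9.47, 12.9 and 9.498 FPKM, in Chi3l1 ko libraries 1 to 4. Ncf1 was at 6.14, 6.64, 8.40 and 5.80 FPKM, and Ncf4 at 8.80, 9.07, 11.4 and 8.68 FPKM. Cyba was at 65.5, 64.3, 90.3 and 50.7 FPKM. For every subunit the Chi3l1 ko and WT groups overlapped, and library 3 was the highest of its group for all 5. The differences were -0.01 for Cybb (interval -0.33 to 0.32), -0.09 for Cyba (-0.64 to 0.47), -0.04 for Ncf1 (-0.52 to 0.45), 0.05 for Ncf4 (-0.40 to 0.51) and 0.02 for Rac2 (-1.07 to 1.11). All 5 adjusted p-values were 0.9998 in limma, 0 subunits had an unadjusted p under 0.05 (1.63% of tested genes did), and edgeR and DESeq2 called 0 (0% of genes higher in each). Over all tested genes, 0.00733% were called in either direction, and 1.12% lay wholly above WT. On this log2 scale the intervals exclude a difference of 1 in Cybb, Cyba, Ncf1 and Ncf4 but not in Rac2.

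The direct comparison of the knockouts gave the test of whether they differed. Cybb was 0.54 higher in Stat3 ko than in Chi3l1 ko libraries (SE 0.15, adjusted p = 0.0368, limma), Ncf1 0.82 (SE 0.22, 0.0342), Ncf4 0.83 (SE 0.21, 0.0255) and Rac2 1.77 (SE 0.50, 0.0398). Cyba differed by 0.50 (SE 0.25) with an adjusted p of 0.2 and was not called. This made 4 of 5 subunits called higher, where 5.19% of tested genes were. The groups did not overlap for Cybb, Ncf4 and Rac2, 3 of 5 subunits, against 6.85% of tested genes. edgeR (7.25% of genes higher) and DESeq2 (13% higher) called the same 4 genes. Both comparisons use the same Stat3 ko libraries, so they are not independent of each other. Here too the calls were near the threshold, with 0 called when only the 2 groups were fitted (1.22% of genes higher) or with no filter (1.38% higher).

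The subunits did not keep 1 proportion to each other. The Ncf1 to Ncf4 ratio was the steadiest of the 10 pairs and varied 1.26-fold over all 12 libraries. Rac2 was the least bound to the others, with a Cybb to Rac2 ratio from 0.157 in Stat3 ko to 1.33 in WT libraries, an 8.44-fold range. Cyba stood at 8.96 to 12.3 times the Ncf1 level in WT and at 6.58 to 8.10 times in Stat3 ko libraries. It stood at 6.65 to 9.49 times Ncf4 in WT and at 4.93 to 5.82 times in Stat3 ko libraries. The Cyba to Rac2 ratio was 6.05 to 7.47 in WT and 1.20 to 5.06 in Stat3 ko libraries. These 3 ratios were lower in all 4 Stat3 ko libraries than in any WT library, with an exact two-sided permutation p of 0.0286 each, the smallest that 4 against 4 can give. Over the 20 ratio tests, chosen after the subunit values had been seen, the Benjamini-Hochberg adjusted value was 0.19, so none passed. With that smallest p and 20 tests, 3 ratios with no overlap could not have passed, so the adjusted value decides nothing about them. No ratio passed the test between Chi3l1 ko and WT libraries (exact two-sided permutation p from 0.2 to 0.886).

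Blood cell markers moved in the same libraries as the subunits. In bulk tissue more cells of a type and more RNA per cell cannot be told apart. Ptprc (CD45), carried by blood cells in general, was at 2.75 to 4.01 FPKM in WT and at 5.15, 25.9, 14.9 and 4.997 FPKM in Stat3 ko libraries 1 to 4, and was called higher together with Cd53 and Laptm5, 3 of 5 pan-leukocyte markers. The 7 B cell markers summed to 8.77 to 20.6 FPKM in WT, to 32.0 to 632 FPKM in Stat3 ko and to 9.84 to 30.3 FPKM in Chi3l1 ko libraries. Of the 4 that were tested, 2 were called higher, Ighm and Fcrla, and Ms4a1 was listed at 0 in 3 libraries. The 8 T cell markers summed to 15.2 to 31.3 FPKM in WT, 24.9 to 234 FPKM in Stat3 ko and 17.6 to 32.1 FPKM in Chi3l1 ko libraries, and 3 were called higher, Cd8b1, Cd2 and Cd8a. The order of the Stat3 ko libraries by B or T cell markers, 2, 3, 1, 4, was close to that of Rac2, in which 4 stood just above 1.

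Macrophage markers gave another order. The 8 markers summed to 406 to 812 FPKM in WT, 612 to 1099 FPKM in Stat3 ko and 426 to 685 FPKM in Chi3l1 ko libraries, and 3 of 8 were called higher, Cd68, Csf1r and Mrc1. Stat3 ko library 4 was the highest in macrophage markers, as in Cybb, and it was the lowest of its group in B and T cell markers. Summed macrophage markers put library 1, at 789 FPKM, above libraries 2 and 3, at 612 and 642 FPKM. In Cybb library 1 was instead the lowest of its group, at 14.0 FPKM. Csf1r and Mrc1 were highest in library 1, and Cd68 in library 4. Of 9 dendritic cell markers, 7 were tested and 5 were called higher, among them Siglech, Fscn1 and Flt3, with a sum of 48.8 to 148 FPKM in Stat3 ko against 25.5 to 40.4 FPKM in WT and 26.2 to 31.3 FPKM in Chi3l1 ko libraries. Of 5 NK cell markers 4 were tested and 3 were called higher, Klrk1, Ncr1 and Prf1.

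Among neutrophil markers, Ly6g and Mpo were near 0, and some others were higher than in WT in some or all Stat3 ko libraries. Ly6g was listed at 0 in 10 of 12 libraries and did not pass 0.059 FPKM, Mpo did not pass 0.259 FPKM, and Elane was at 0.242 to 1.04 FPKM in Stat3 ko against 0 to 0.227 FPKM in WT libraries. S100a9, a calcium-binding protein abundant in neutrophils, was at 0.460, 20.2, 2.65 and 0.507 FPKM in Stat3 ko libraries 1 to 4 against 0.501 to 1.97 FPKM in WT (log2 difference 0.94, adjusted p = 0.358, limma). Cxcr2, a chemokine receptor of neutrophils, was below the filter and stood at 3.03 and 1.66 FPKM in Stat3 ko libraries 2 and 3 against at most 0.132 FPKM in WT. Libraries 2 and 3 were thus the highest in Rac2, in B cell markers and in these 2 genes. Other genes of the list gave other orders. Csf3r, which was tested, was highest in Stat3 ko library 4, at 4.24 FPKM against 3.19 and 2.26 FPKM in libraries 2 and 3. Elane was highest in library 1. Of 12 neutrophil markers 4 were tested, none was called higher, and S100a8 fell by 2.81 (adjusted p = 0.00209, limma), from 29.3 ± 2.78 to 4.36 ± 4.54 FPKM (SD, n = 4). S100a8 and Ltf are also made by mammary epithelium, and the summed neutrophil list, 852 to 1317 FPKM in WT, 245 to 932 FPKM in Stat3 ko and 919 to 1986 FPKM in Chi3l1 ko libraries, was nearly all Ltf. Of 4 eosinophil markers none was tested.

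Markers of the other tissue cells also differed between the groups. All 7 epithelial markers had a negative difference in Stat3 ko against WT, with a median of -0.77 and 0 called, and they summed to 1102, 1103, 2225 and 2370 FPKM in Stat3 ko libraries 1 to 4 against 1893 to 2805 FPKM in WT. Adipocyte markers summed to 208 to 3863 FPKM in Stat3 ko against 33.7 to 118 FPKM in WT, and 3 of 4 were called higher, Fabp4, Plin1 and Cidec. Endothelial markers summed to 31.5 to 99.5 FPKM against 21.6 to 32.5 FPKM, with 1 of 4 called higher, Pecam1. Mast cell markers summed to 23.6 to 96.1 FPKM against 4.66 to 34.1 FPKM, with 0 of 4 called. The part of each cell type in the subunit differences was not tested.

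**Figure D3:**
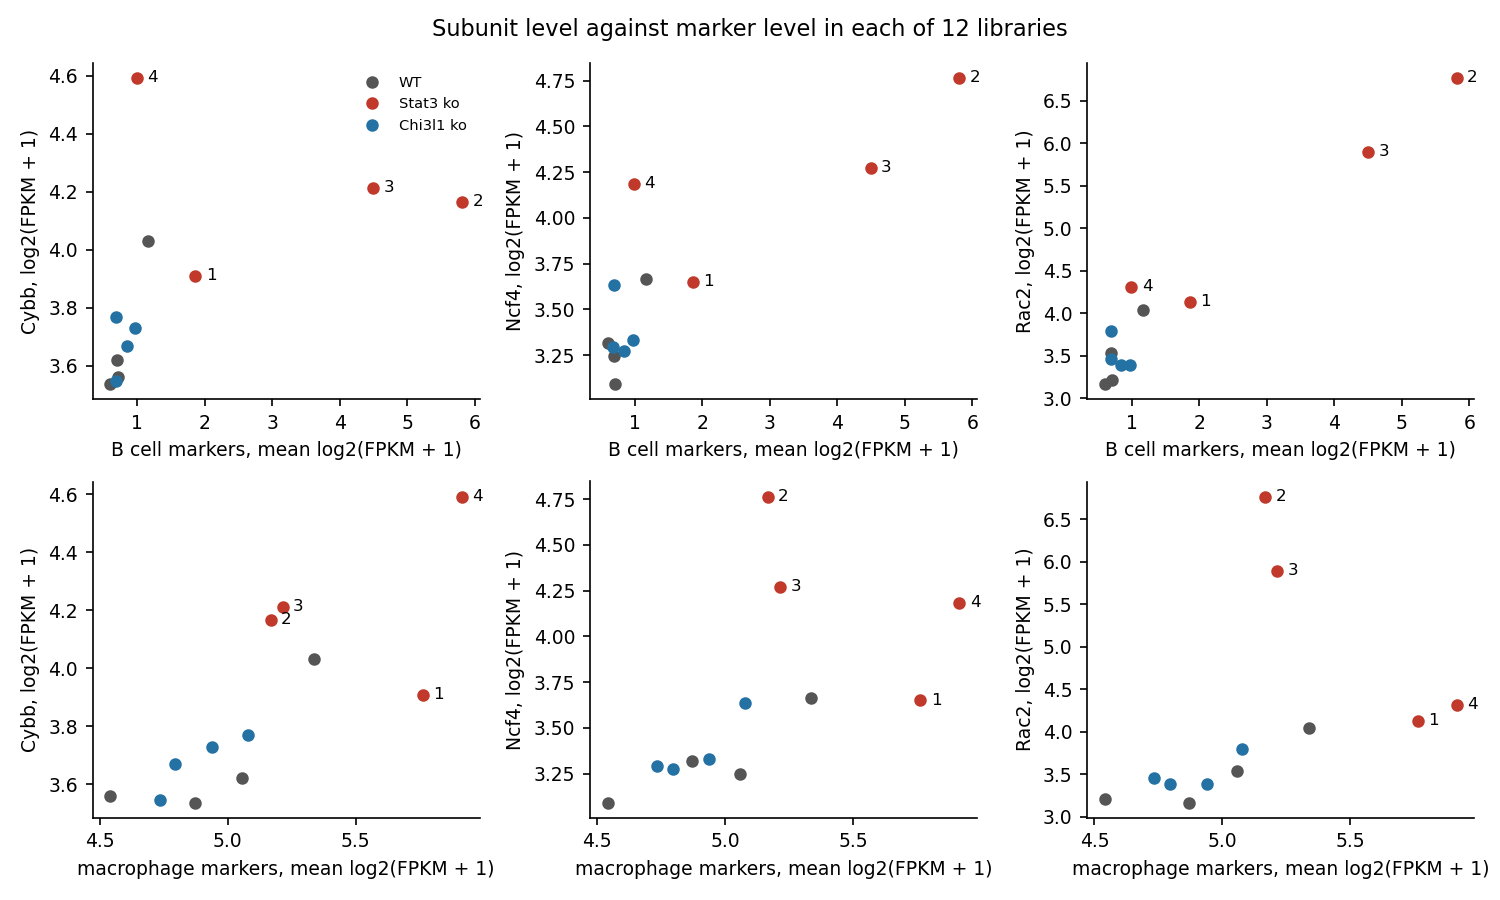
Level of Cybb, Ncf4 and Rac2 in log2(FPKM + 1) against the mean log2(FPKM + 1) of the B cell markers (upper row) and macrophage markers (lower row), 1 point a library, with Stat3 ko libraries numbered. Libraries 2 and 3 are highest in Rac2 and B cell markers, and library 4 is highest in Cybb and macrophage markers.

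Leaving out Stat3 ko libraries 2 and 3 changed the differences unequally. These libraries held the highest Rac2 levels, and the library with the highest Cybb level was kept. A larger fall for Rac2 than for Cybb thus follows from that choice and is no separate result. The Cybb difference against WT became 0.56, that of Ncf4 0.59, of Ncf1 0.48, of Cyba 0.18 and of Rac2 0.73, so the Rac2 difference shrank from 1.79 while that of Cybb was as large as with every library. No subunit was called in that fit (3.01% of tested genes higher), and 4 had an unadjusted p under 0.05, as did 36% of all tested genes. The adjusted p of the 4 that had been called lay between 0.0746 and 0.133 in limma. With the mean B cell marker level as a term, the differences were 0.59 for Cybb, 0.49 for Ncf4, 0.39 for Rac2, 0.36 for Ncf1 and 0.08 for Cyba, and 0 were called (0.396% higher). With Ptprc as a term they were 0.52, 0.31, 0.02, 0.17 and -0.11 in the same order, again with 0 called (0.396% higher). In both fits Cybb alone of the 5 had an unadjusted p under 0.05, as did 21.4% and 23.5% of all tested genes. With the macrophage marker level as a term, Rac2 went to 2.42 and was the only one called (adjusted p = 0.0492, limma, 2.18% of genes higher), and Cybb went to 0.31. The high B cell marker levels occurred in Stat3 ko libraries only, so that term and the genotype cannot be told apart in full. The same holds for the Ptprc term. Ptprc was at 4.997 FPKM or more in every Stat3 ko library and at most at 4.01 FPKM in all other libraries. Against Chi3l1 ko libraries the same 4 fits called 0 subunits, where 3.09%, 0.506%, 0.498% and 1.52% of tested genes were called higher. In them 4, 1, 1 and 3 subunits had an unadjusted p under 0.05, as did 32.2%, 19.7%, 21.8% and 20.9% of all tested genes.

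**Figure D4:**
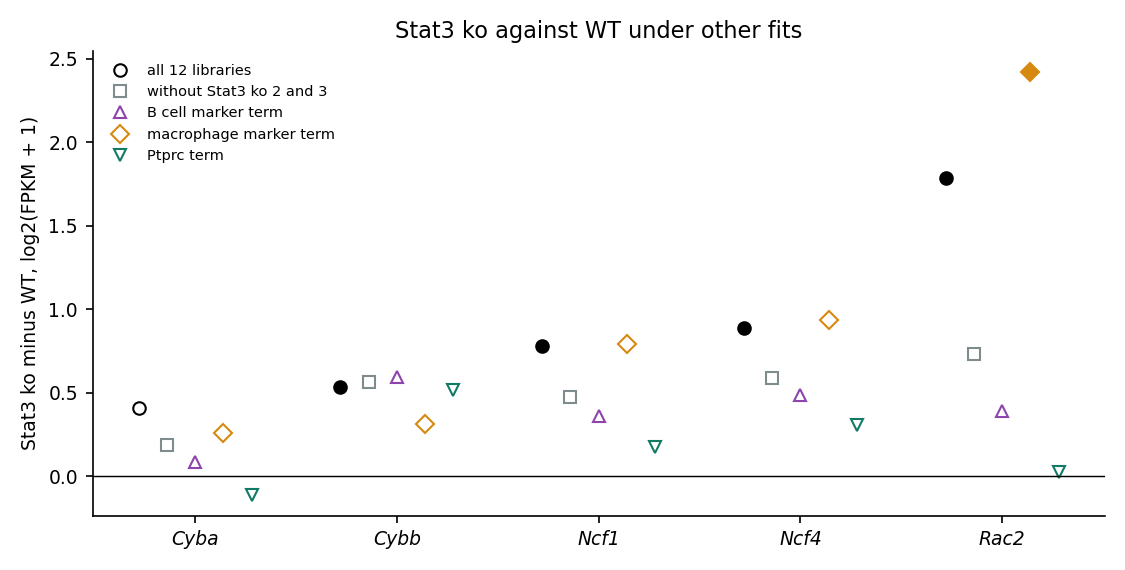
Difference of Stat3 ko from WT in log2(FPKM + 1) for each subunit with all 12 libraries, without Stat3 ko libraries 2 and 3, and with a marker term; filled symbols have an adjusted p under 0.05. Rac2 ranged from 0.02 to 2.42 and Cybb from 0.31 to 0.59.

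Set against Ptprc in the same library, no subunit differed between Stat3 ko and WT glands by a test that passed the threshold. The log2 ratio of Rac2 to Ptprc, with 1 FPKM added to each, was 1.23 to 1.72 in WT and 1.51, 2.02, 1.91 and 1.73 in Stat3 ko libraries 1 to 4, the steadiest of the 5 within that group. The ratio of Cybb was 1.60 to 1.71 in WT and 1.29, -0.58, 0.22 and 2.01 in Stat3 ko libraries, lowest in libraries 2 and 3 and highest in library 4. Mean ratios were 1.06 lower for Cyba, 0.93 lower for Cybb, 0.68 lower for Ncf1 and 0.58 lower for Ncf4, and 0.32 higher for Rac2. None of the 5 passed an exact two-sided permutation test, with p from 0.0857 to 0.229 and Benjamini-Hochberg values over 10 tests from 0.381 to 0.457. At the smallest p possible here, 0.0286, the 5 Stat3 ko ratios alone could not reach a Benjamini-Hochberg value under 0.05. In Chi3l1 ko libraries the mean ratios differed from WT by -0.13 to 0.01 (exact permutation p from 0.343 to 0.8286).

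Of 4 further partners of the complex described here, 1 was called higher in Stat3 ko against WT and none lower. Hvcn1, the proton channel that balances the charge moved by the oxidase and is abundant in B cells, was at 1.05, 2.45, 1.35 and 1.17 FPKM in WT and at 5.83, 21.4, 8.78 and 2.60 FPKM in Stat3 ko libraries. It rose by 1.81 (SE 0.43, adjusted p = 0.0229, limma), with the highest level in library 2 and the lowest of its group in library 4. Rac1, the widely made GTPase, was at 75.2 ± 5.20 FPKM in WT and 69.5 ± 5.0 FPKM in Stat3 ko libraries (SD, n = 4) and did not pass the test. Rap1a, a GTPase found with the membrane chains, was at 34.3 ± 0.441 and 38.8 ± 4.95 FPKM, and Cybc1, the chaperone of the chains, at 13.5 ± 0.917 and 12.2 ± 3.15 FPKM, both short of the threshold. None of these 4 was called in Chi3l1 ko against WT.

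Other NADPH oxidases and the proteins that work with them went the other way where they were tested. Of 9 listed genes, 3 were tested, and 2 were called lower in Stat3 ko against WT, of which 1 encodes an oxidase. Duox1, a hydrogen peroxide-making oxidase of epithelia, fell from 12.3 ± 3.29 to 3.15 ± 1.66 FPKM (SD, n = 4; log2 difference -1.76, adjusted p = 0.00737, limma). Duoxa1, its maturation factor, fell from 21.6 ± 3.44 to 9.58 ± 5.34 FPKM (-1.26, adjusted p = 0.0399, limma). Both were lowest in Stat3 ko library 1, at 0.957 and 2.84 FPKM. Epithelial marker sums were 1102 FPKM in library 1 and 1103 FPKM in library 2, where Duox1 was at 3.46 and Duoxa1 at 10.2 FPKM. Library 3, with a sum of 2225 FPKM, had them at 3.21 and 9.38 FPKM. Epcam, an epithelial adhesion protein, differed by -0.95 (adjusted p = 0.052, limma), and the part of epithelial content in these 2 calls was not tested. Nox4, which also pairs with p22phox, was at 1.59 ± 0.488 and 0.874 ± 0.315 FPKM without passing the test. Nox3 was listed at 0 in all 12 libraries and Nox1 did not pass 0.117 FPKM. Noxo1 was below the filter, at 0.519 ± 0.117 FPKM in WT and 0.745 ± 0.346 FPKM in Stat3 ko libraries (SD, n = 4), and these groups overlapped.

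Receptors and kinases upstream of the oxidase were mixed. Of 13 triggering receptors 11 were tested, and 2 were called higher and 1 lower, with a median difference of 0.37 against -0.02 over all tested genes. Those called were Itgb2 (1.04) and Itgam (0.59), which form the complement receptor Mac-1, and Tlr4 (-0.57), the lipopolysaccharide receptor. Of 14 kinases and Rac exchange factors 6 were called higher and 1 lower, with a median of 0.84. Prex1, a Rac exchange factor, differed by 1.12 (adjusted p = 0.00521, limma), Syk, the kinase under Fc receptors, by 1.43 and Dock2, a Rac activator of blood cells, by 1.38, and Pak1, a kinase bound by active Rac, fell by 0.84. Of 8 transcription factors known for these promoters 7 were tested. Irf8 (1.20) and Spi1 (0.88), which encodes PU.1, were called higher, and Cebpb (-0.85) was called lower, with a median of 0.34. Of 12 genes that handle superoxide and peroxide 11 were tested. Sod3, the extracellular superoxide dismutase, rose by 1.92, Gpx1 and Prdx1, which remove peroxides, fell by 0.40 and 0.39, and the median was 0.22. In Chi3l1 ko against WT none of these lists held a called gene.

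Each subunit had its own nearest profiles over the 12 libraries, among 13055 genes of sufficient level. Ncf1 and Ncf4 were nearest to each other, with a Pearson r of 0.988, apart from Nckap1l (0.992), the blood cell subunit of the WAVE complex, which came first for Ncf4. The other close profiles were Adcy7 (0.983) and Arrb2 (0.98) for Ncf1 and Inpp5d (0.981) for Ncf4. Rac2 was nearest to Sash3 (0.995), a lymphocyte adaptor, Arhgap45 (0.994) and Fmnl1 (0.994). Cybb was nearest to Gm21188 (0.944), Tgfbi (0.939) and Ptpro (0.936), and Cyba to Aif1 (0.941), a macrophage marker, Rps21 (0.918) and Scimp (0.911). Between subunits, r was lowest for Cybb and Rac2, at 0.676. These values describe 12 libraries that include the groups themselves, so a shared difference of the Stat3 ko libraries raises them.

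Ncf4 and Rac2 are 296586 bases apart on chromosome 15, and 17 genes lie between them, of which 7 were tested. Of the 7, 3 were called higher in Stat3 ko against WT and none lower. They were Csf2rb (4.57 ± 1.003 to 10.2 ± 2.40 FPKM, SD, n = 4) and Csf2rb2 (3.50 ± 0.727 to 8.37 ± 2.77 FPKM), which encode beta chains of the GM-CSF, IL-3 and IL-5 receptors, and Il2rb (5.61 ± 2.65 to 11.9 ± 4.29 FPKM), the beta chain of the IL-2 receptor. Csf2rb and Csf2rb2 are close paralogs, and reads may be split between them. Tst and Mpst, a pair of neighbouring sulfurtransferases, Kctd17 and C1qtnf6 were not called, with differences of 0.48, -0.13, 0.31 and 0.64. The stretch between the subunits thus held both blood cell receptor genes that rose and neighbours that were not called.

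The authors' deposited table of Stat3 ko against WT, with 6155 genes, lists 4 of the 5 subunits. It gives log2 fold changes of 2.23 for Rac2 (adjusted p = 0.00157), 0.98 for Ncf4 (0.00559), 0.89 for Ncf1 (0.0212) and 0.56 for Cybb (0.0517). Cyba has no row in the authors' deposited table of that comparison, and the authors' deposited table of Chi3l1 ko against WT, with 824 genes, lists 0 of the 5.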

How the data were processed

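RNA-seq of 12 mammary gland libraries was analysed from deposited tables. Per the labels' protocols, total RNA was extracted with an RNeasy kit and libraries were made with NEBNext Ultra II. Per the submitters' processing notes, GRCm38 (mm10) was the genome build, and the tools listed there, with no version given, are STAR, HTSeq, Trimmomatic, limma and edgeR. The authors deposited FPKM for all 12 libraries, and, in the tables of each comparison, read counts, normalised signal, log2 fold changes and p-values. Whole counts were recovered here from the deposited FPKM and gene lengths (within 0.01 reads for 100% of values above 0), and 0 of 55832 deposited counts differed from them. Gene names that a spreadsheet had turned into dates (27) were restored from the gene IDs.

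The 13643 of 54532 genes that reached 1 FPKM in 4 or more libraries were tested on log2(FPKM + 1), which understates changes of low genes, with limma 3.58.1 (R 4.3.3, trend, 3 group means), two-sided, with Benjamini-Hochberg adjustment over all tested genes and a call at an adjusted p under 0.05. Ratios were tested by exact permutation (scipy 1.17.1). The fit was tested on simulated data. The alternatives were a pseudocount of 0.1, other filters, scalings and weights, edgeR 4.0.16, DESeq2 1.42.0, left-out libraries and marker terms. Subunits, gene lists and left-out libraries were chosen with earlier results of these data known. Replicates were numbered in accession order.

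All 5 subunits are named, with 4 partners; 2 listed genes are not reported here. From other pathway lists up to 4 called genes, from marker lists up to 3, the 3 nearest profiles of each subunit and the tested genes between Ncf4 and Rac2 are named. Neutrophil markers other than S100a8, Epcam, Nox1, Nox3, Nox4, Noxo1 and Ms4a1 were chosen after their values were seen.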

Additional observations from a re-analysis of the deposited data

Results flagged for a closer look

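In 45 groups of 4 libraries checked for a library far from its fellows, where chance flags about 1 in 20, 4 held one. WT library 2 stood alone at the top of its group in Cybb, at 15.3 FPKM against 10.6 to 11.3 in the other 3, and in Cyba, at 111 FPKM against 58.0 to 64.2. Chi3l1 ko library 3 stood alone in Ncf4, at 11.4 FPKM against 8.68 to 9.07, and in Rac2, at 12.9 FPKM against 9.47 to 10.01. Both libraries had the highest Ptprc level of their group, at 4.01 and 3.65 FPKM, and the highest summed macrophage markers, at 812 and 685 FPKM. Whether these moved the subunits was not tested. Without WT library 2 the Stat3 ko difference of Cyba was 0.62 with an adjusted p of 0.0973 (limma). The same 4 subunits were called, where 3.87% of tested genes were called higher.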

How the results depend on the processing

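The 5 differences between Stat3 ko and WT were recomputed under 26 alternatives each, and those of Cybb, Ncf1, Ncf4 and Rac2 were above 0 in all of them. The call at an adjusted p under 0.05 (limma, edgeR or DESeq2) held for Cybb in 12, Ncf1 in 13, Ncf4 in 18 and Rac2 in 13 of the 26. Of the 4 subunits called in Stat3 ko against WT, 1 was left with no filter on low values, where more genes were tested, and 1 with the macrophage marker term. In that comparison 0 were left with only the 2 groups fitted, without Stat3 ko libraries 2 and 3, with the B cell marker term and with the Ptprc term. Of the 4 called in Stat3 ko against Chi3l1 ko, 0 were left under each of these 6 alternatives. Leaving out 1 library at a time gave 0 to 4 called subunits in both comparisons. In the second, Stat3 ko library 2 and Chi3l1 ko libraries 1 and 4 left 0, Stat3 ko library 3, WT libraries 1 and 3 and Chi3l1 ko libraries 2 and 3 left 1 (Ncf4), and WT libraries 2 and 4 left 3. In those fits 1.29% to 9.1% of all genes were called higher, and in the first comparison 1.17% to 10.8%. The cause was not tested. The other scalings, the pseudocount of 0.1, the filter at a mean of 5 FPKM, array weights, edgeR and DESeq2 kept all 4 in both comparisons. Without the 3 libraries over 2% mitochondrial counts 4 and 3 were called. For these settings, apart from edgeR and DESeq2, the share of all genes called higher is not given here. Under them 25.3% to 36.2% of all tested genes had an unadjusted p under 0.05 in Stat3 ko against WT. Against Chi3l1 ko it was 28.2% to 33%. In Chi3l1 ko against WT 0 were called under every alternative run. By the ratio to Ptprc, 0 subunits had an unadjusted p under 0.05, and 1 did, Cyba, with a pseudocount of 0.1 and with the pan-leukocyte denominator. With 4 libraries a group, the 95% interval of Rac2 in Chi3l1 ko against WT, -1.07 to 1.11, spans a doubling. No paired analysis was possible because the labels give no replicate numbers that are shared between groups.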
